A study of Mus musculus with 6 samples.

Results

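The genes described here pattern the body from head to tail: 38 HOX genes, the posterior homeobox genes Cdx1, Cdx2, Evx1 and Evx2, the hindbrain homeobox gene Gbx2, and the TALE-class homeobox genes Meis1, Meis2, Meis3, Pbx2 and Pbx3. Their accessibility was read from ATAC-seq, an assay whose transposase cuts and tags DNA wherever chromatin is open. Members were the rows of the authors' table of all peaks whose gene column named 1 of these 48 genes, which gave 64 of 70494 peaks. Of the 48 genes, 29 had a peak and 19 had none. Assignment to the nearest start site gave the same 64 peaks, and the nearest gene need not be the gene that a site regulates.

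The cells were definitive endoderm made from mouse epiblast stem cells of the line 7H OTX2-dTAG-EGFP, on a BL6/129 hybrid background. In this line the transcription factor OTX2, itself a homeodomain protein of anterior tissue, carries a degradation tag and EGFP. All cells first received Activin A (40 ng/ml) with CHIR (3 uM) over 16 h, followed by Activin A (100 ng/ml) with LDN (100 nM) over 24 h. From the primitive streak stage, 1 group received dTAG13, a small molecule that sends the tagged protein for degradation, for 24 h, and the other received its solvent DMSO. Each group comprised 3 libraries of 50000 sorted live cells. Both groups carry the tagged allele, and no group of the labels is an untagged line given dTAG13, so depletion of OTX2 and other effects of the compound cannot be told apart. Per the design text the 3 libraries per group are technical replicates, and every p-value below measures the spread between such libraries, which may not include the spread between cultures. In bulk libraries, fewer cells with an open site and less opening per cell cannot be told apart.

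HOX genes lie in 4 clusters, HoxA to HoxD, and encode homeodomain factors that give cells their position along the head-to-tail axis. Genes of low paralogue number act towards the head, and genes of high number towards the tail. CDX proteins activate central and posterior HOX genes, and in the gut Cdx2 sets intestinal identity. MEIS and PBX proteins bind DNA together with HOX proteins and sharpen their choice of sites. Gbx2 and Otx2 oppose each other at the boundary of midbrain and hindbrain.

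The peak table holds 1 mean normalized count, 1 log2 fold change of dTAG13 over DMSO and its standard error (SE) for each peak, and library values were not used here. Levels per group are therefore given as implied means, the pair of values whose average is the deposited mean and whose ratio is the deposited fold change; they have no SD of their own. A log2 fold change above 0 means more signal with dTAG13. A peak was called when its adjusted p in the authors' deposited table (Benjamini-Hochberg, 69128 peaks) was under 0.05. As a check of the cell type, all 9 definitive endoderm markers looked up, such as Sox17 and Foxa2, had a peak within 1000 bases of their start site. The same held for 2 of 6 mesoderm, 4 of 4 neural, 3 of 4 epiblast and 2 of 4 extraembryonic endoderm markers, and an open start site is not expression.

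Accessibility at the HOX, CDX and TALE genes was called changed at 1 of 64 peaks (1.56%), against 5.26% of all tested peaks. That peak lies in an intron of Meis2 and was higher with dTAG13. In the higher direction the members' count of 1 (1.56%) stands beside 1.47% of all peaks, which is close to it. In the lower direction none of the 64 was called, against 3.79% of all peaks; 5 of the 64 were lower at an unadjusted p under 0.05. Without adjustment 9 member peaks (14.1%) had a p under 0.05, against 19.7% of all peaks. Promoter peaks, those centred near a start site of their own gene, made up 40.6% of members and 29.9% of all peaks. Among them 0 of 26 members were called, against 2.17% of all, and 3.85% against 12.6% had an unadjusted p under 0.05. Elsewhere 1 of 38 members (2.63%) was called, against 6.61%, and 21.1% against 22.8% had such a p. Whether members differ from all peaks of like position was not tested. Among the authors' enriched lists, which also ask for a change of 1 log2 unit or more in size, the DMSO list held 0 members against 3.76% of all peaks and the dTAG13 list held the Meis2 peak against 1.28%. The median log2 fold change over the 64 peaks was -0.16, with quartiles of -0.89 and 0.46, and over all peaks it was -0.18. The sign of this small median was not stable: it was 0.02 with the median of all peaks set to 0 and -0.25 with the median of peaks found in both groups set to 0.

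**Figure D1:**
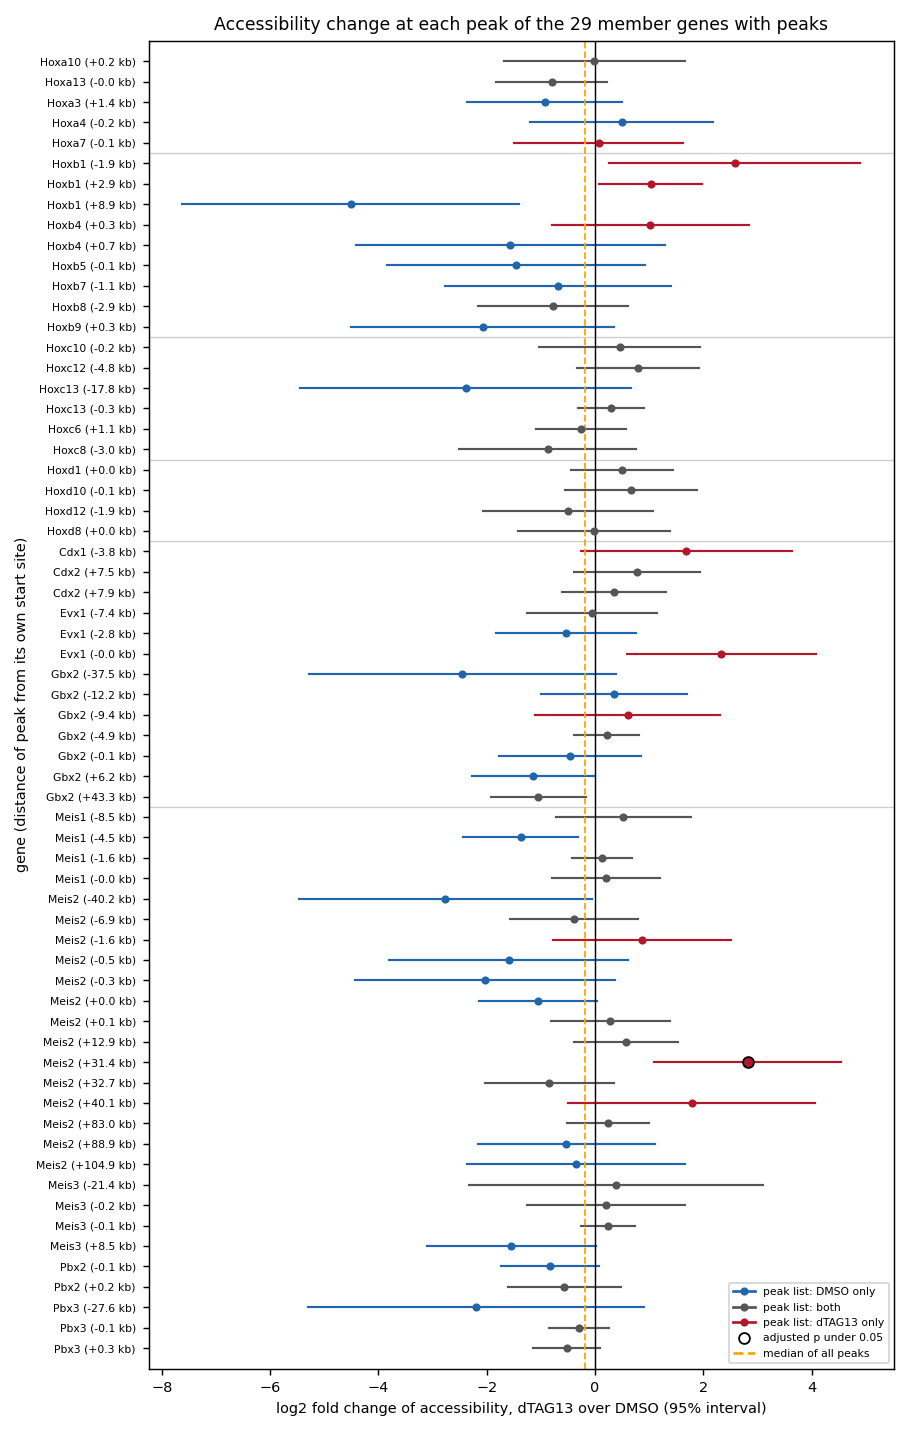
Log2 fold change of dTAG13 over DMSO (x axis) at each of the 64 peaks, 1 row per peak, grouped by HOX cluster and gene family, with bars of the 95% interval (1.96 SE) and colour for the pooled peak list that holds the peak. The ringed Meis2 peak at 2.82 is the called peak, and the dashed line is the median of all peaks at -0.18.

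By median count, member peaks were about as strong as all peaks. Wide intervals at most member peaks limit what the comparison could show. Their mean normalized count had a median of 7.70 and ranged from 2.05 to 51.2, against a median of 7.33 over all peaks. It was under 5 at 17 of 64 (26.6%), against 32.3% of all peaks. In 18 of 64 (28.1%) the implied mean of the lower group was under 3 normalized counts per library, against 29.5% of all peaks. The 95% interval of the fold change lay within 1 log2 unit of 0 at 5 member peaks (7.81%), against 12.7% of all peaks. These 5 were at Gbx2, Hoxc13, Meis1, Pbx3 and Meis3. At the remaining member peaks a change of over 1 log2 unit in at least 1 direction lay inside the interval. Of the 64, 23 (35.9%) were in the pooled peak list of the DMSO group only, 31 (48.4%) in both lists and 10 (15.6%) in the dTAG13 list only; of all peaks, 40.1%, 48.2% and 11.8% were. At 26 (40.6%) the peak was centred no more than 1000 bases from a start site of its own gene, against 29.9% of all peaks.

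Meis2, a TALE cofactor of HOX proteins, had 14 peaks, the most of any member. The called peak, chr2:116010611-116010775 in GRCm38.p6 (mm10), is 165 bases long, lies in intron 7 of 11 and is 31353 bases downstream of the nearest Meis2 start site and 55.1 kb from the outermost. Its sequence is shown because it is the only member peak that passed the threshold. It is given 5′ to 3′ on the plus strand from GRCm38.p6 of RefSeq, with a match to GGAATG, the core letters of TEAD sites (chosen after the values were seen), in capitals.
Meis2 chr2:116010611-116010775: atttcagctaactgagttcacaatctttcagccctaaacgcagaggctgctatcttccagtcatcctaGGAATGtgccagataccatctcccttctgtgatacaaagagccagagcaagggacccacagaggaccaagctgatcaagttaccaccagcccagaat
The implied mean was 1.88 normalized counts per library with DMSO and 13.3 with dTAG13, a 7.08-fold difference with a 95% interval of 2.13 to 23.5. The DMSO level was thus under 3 normalized counts per library. The authors' deposited table gave it a log2 fold change of 2.82 with SE 0.88 and adjusted p = 0.0349. The peak was found in the pooled dTAG13 list and not in the DMSO list. Under settings that kept it in the test, its adjusted p ranged from 0.0193 to 0.0409, and with a filter that kept peaks of a mean count of at least 10 it was not tested.

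No other Meis2 peak was called. The neighbouring peak in the same intron, 56.5 kb from the outermost start site, had implied means of 12.98 with DMSO and 7.23 with dTAG13 (log2 fold change -0.84, SE 0.61, adjusted p = 0.461, from the authors' deposited table). A peak at 63.9 kb had 1.61 with DMSO and 5.56 with dTAG13 (adjusted p = 0.405, from the authors' deposited table). The start-site peak chr2:116062289-116062413 went from 16.1 to 7.75 (log2 fold change -1.05, SE 0.55, adjusted p = 0.274, from the authors' deposited table). A weak intron peak, chr2:115913156-115913262, went from 5.38 to 0.79, the latter under 3 normalized counts per library (log2 fold change -2.76, adjusted p = 0.242, from the authors' deposited table). With the log2 fold changes centred on 0 within each of 10 groups of peaks by GC content (each GC decile centred), it was -1.98. Over the 14 peaks, 6 log2 fold changes were above 0 and 8 below, of which 2 turned above 0 with each GC decile centred. The implied means summed over the locus were 109.3 with DMSO and 107.7 with dTAG13, so the gain at the called peak was not seen in the sum. By pooled list, 6 of the 14 peaks (42.9%) were in the DMSO list only, 5 (35.7%) in both and 3 (21.4%) in the dTAG13 list only, beside 40.1%, 48.2% and 11.8% of all peaks.

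**Figure D2:**
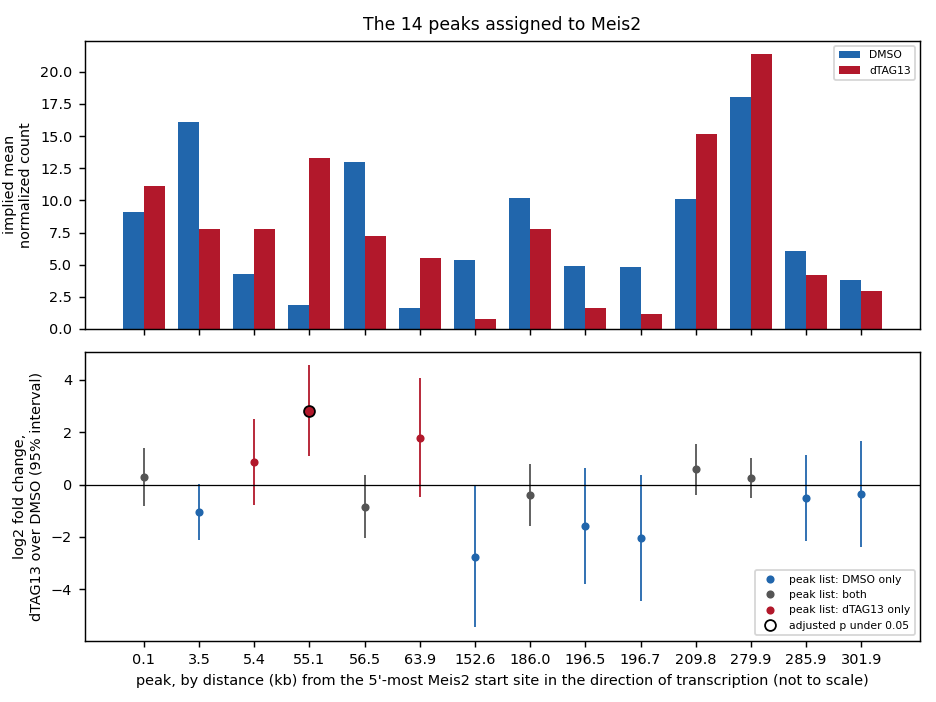
The 14 peaks of Meis2 in order of distance (kb) from the outermost start site, evenly spaced and not to scale: implied mean normalized counts per group above, log2 fold change with its 95% interval below. The called peak at 55.1 kb rises from 1.88 to 13.3 between neighbours whose intervals include 0.

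The other TALE members had start sites in open chromatin, and none of their peaks was called. All 5 MEIS and PBX genes had a peak within 1000 bases of a start site, against 63.4% of 21924 protein-coding genes. Meis3 held the strongest member peak, chr7:16175032-16175418 at its start site, with 46.9 normalized counts with DMSO and 55.6 with dTAG13 (log2 fold change 0.24, SE 0.25, from the authors' deposited table). Pbx3 had a pair of start-site peaks, with implied means of 42.1 and 29.3 at the first and 47.3 and 38.6 at the other for DMSO and dTAG13. Both were nominally lower with dTAG13 (adjusted p = 0.358 and 0.596, from the authors' deposited table). Pbx2 also had a pair at its start site; the peak chr17:34592040-34592201 went from 20.7 to 11.6 (log2 fold change -0.83, SE 0.46, adjusted p = 0.307, from the authors' deposited table).

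Meis1, a cofactor known from blood and limb development, had 4 peaks. Its peak 4501 bases upstream of the start site, chr11:19023384-19023588, had implied means of 18.5 with DMSO and 7.15 with dTAG13. The authors' deposited table gave it a log2 fold change of -1.37 with SE 0.54 and adjusted p = 0.113, so it missed the threshold. With each GC decile centred, the value was -0.59, not called. The strongest Meis1 peak, near the promoter, had 35.5 and 38.8 (log2 fold change 0.13, SE 0.29, from the authors' deposited table), and its 95% interval ran from -0.43 to 0.69. The Meis3 peak 8506 bases downstream of its start site, chr7:16192524-16192667, went from 9.20 to 3.16 (log2 fold change -1.54, SE 0.79, adjusted p = 0.261, from the authors' deposited table). Over the 27 MEIS and PBX peaks the median log2 fold change was -0.36; 10 (37.0%) were in the DMSO list only, 14 (51.9%) in both and 3 (11.1%) in the dTAG13 list only, near the 40.1%, 48.2% and 11.8% of all peaks.

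HOX genes were sparsely open. Of the 38 HOX members, 20 had a peak, 24 peaks in all, and 13 (34.2%) had a start site within 1000 bases of any peak, against the 63.4% of protein-coding genes. By position along the axis, the start site was near a peak at 1 of 7 genes of paralogue groups 1 to 3, at 6 of 15 genes of groups 4 to 8 and at 6 of 16 genes of groups 9 to 13. The HOX genes with no assigned peak were Hoxa2, Hoxa5, Hoxa6, Hoxa9, Hoxa11, Hoxb2, Hoxb3, Hoxb6, Hoxb13, Hoxc4, Hoxc5, Hoxc9, Hoxc11, Hoxd3, Hoxd4, Hoxd9, Hoxd11 and Hoxd13; outside the HOX genes, Evx2 had none. The median mean count was 5.65 at the 13 HOX promoter peaks, 12.7 at the 11 MEIS and PBX promoter peaks and 15.8 at all promoter peaks. No HOX peak was called, against 5.26% of all tested peaks, and the median log2 fold change of the 24 was -0.14, beside -0.18 over all peaks. Of the 24, 13 were promoter peaks, and of all promoter peaks only 2.17% were called. Whether HOX peaks differ from all peaks of like position was not tested. By pooled list, 8 HOX peaks (33.3%) were in the DMSO list only, 12 (50%) in both and 4 (16.7%) in the dTAG13 list only, near the 40.1%, 48.2% and 11.8% of all peaks.

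**Figure D3:**
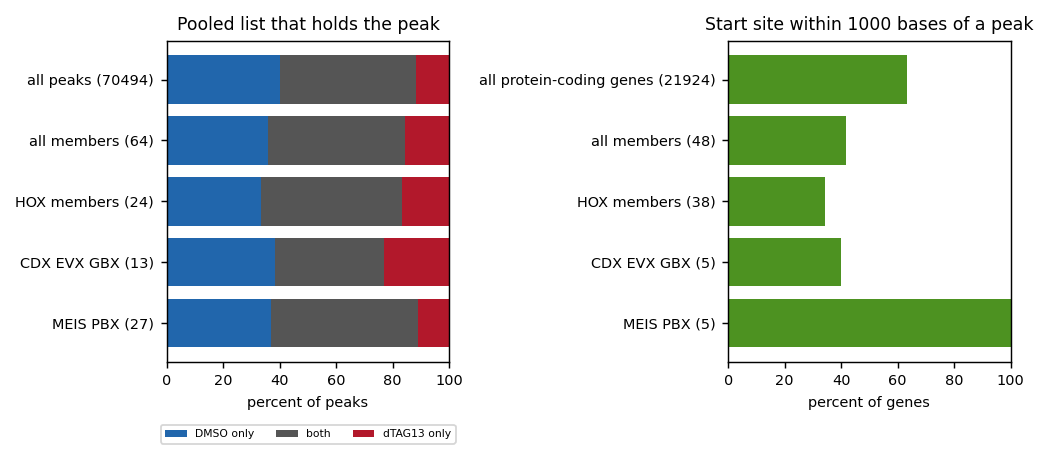
Left, percent of peaks found in the DMSO list only, in both or in the dTAG13 list only, for all peaks and for each gene group; right, percent of genes whose start site lies within 1000 bases of a peak. The 38 HOX members stand at 34.2% on the right, all protein-coding genes at 63.4% and the 5 MEIS and PBX genes at 100%.

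The posterior gene Hoxc13, known from hair and nail formation, had the strongest HOX peak, chr15:102920672-102920970, 282 bases upstream of its start site. Its implied means were 33.9 with DMSO and 41.8 with dTAG13 (log2 fold change 0.30, SE 0.31, from the authors' deposited table), with a 95% interval of -0.31 to 0.91. A second, weak Hoxc13 peak went from 3.85 to 0.74 (log2 fold change -2.39, adjusted p = 0.406, from the authors' deposited table), and -1.61 with each GC decile centred. Hoxa13, which acts in the hindgut and the limb, had the strongest HoxA peak assigned to a member, at its start site, with 17.0 and 9.76 (log2 fold change -0.80, SE 0.53, adjusted p = 0.41, from the authors' deposited table). Hoxd1 had the strongest HoxD peak assigned to a member, also at its start site, with 11.3 and 16.0 (log2 fold change 0.50, SE 0.48, adjusted p = 0.607, from the authors' deposited table). Of the rest, the peak at Hoxc6, a gene of the trunk, had 22.3 and 18.6, and the start-site peaks of Hoxa10, Hoxd8 and Hoxa7 had nearly equal implied means, with a sign that depended on the zero point, 5.67 and 5.63, 6.49 and 6.40, and 5.48 and 5.74. At the latter 3 genes the 95% intervals still spanned more than 1 log2 unit on each side of 0, from -1.68 to 1.66 at Hoxa10. Other HOX peaks of these clusters differed more, and none was called. With DMSO and dTAG13, Hoxc12 had 7.28 and 12.7, Hoxd10 6.78 and 10.8, Hoxa4 3.78 and 5.31 and Hoxc10 5.41 and 7.42. Hoxc8 had 8.17 and 4.45, and Hoxd12 had 7.23 and 5.12. Their adjusted p ran from 0.461 at Hoxc12 to 0.801 at Hoxa4 in the authors' deposited table. All 4 HoxD peaks were in both pooled lists, as were 5 of 6 HoxC peaks.

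By median level, HoxB peaks were the weakest of the 4 clusters. The 9 peaks had a median mean count of 3.19, and in 7 of them the lower group was under 3 normalized counts per library. The peaks at Hoxb9 (5.16 with DMSO and 1.23 with dTAG13), Hoxb5 (4.31 and 1.57), Hoxb7 (3.79 and 2.36) and Hoxb8 (9.50 and 5.55) were nominally lower with dTAG13, with adjusted p from 0.354 at Hoxb9 to 0.771 at Hoxb7 in the authors' deposited table. Hoxb4 had 1 peak in each direction, both in its promoter, with 2.65 and 5.38 at the first and 3.64 and 1.23 at the other.

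Hoxb1, which gives a hindbrain segment its identity, had 3 peaks whose values pointed in different directions. Each had an unadjusted p under 0.05 in the authors' deposited table, and none was called. The 3 sequences are shown because Hoxb1 was the member whose every peak had such a p; they are on the plus strand of GRCm38.p6, and capitals mark a match to AGGTCA, the core letters of nuclear receptor sites.
Hoxb1 chr11:96363859-96363926: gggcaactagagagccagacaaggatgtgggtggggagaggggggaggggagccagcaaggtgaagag
Hoxb1 chr11:96369034-96369280: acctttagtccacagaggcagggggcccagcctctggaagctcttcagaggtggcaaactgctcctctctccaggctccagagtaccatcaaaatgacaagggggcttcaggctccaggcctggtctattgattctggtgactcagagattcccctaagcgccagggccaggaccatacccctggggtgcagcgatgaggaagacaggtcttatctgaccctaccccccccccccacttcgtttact
Hoxb1 chr11:96375100-96375185: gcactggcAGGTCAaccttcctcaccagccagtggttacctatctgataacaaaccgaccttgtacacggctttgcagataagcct
The first peak lies 1859 bases upstream of the start site and went from 1.05 with DMSO to 6.28 with dTAG13 (log2 fold change 2.59, SE 1.18, adjusted p = 0.189, from the authors' deposited table). The second, 2899 bases downstream of the start site, went from 8.75 to 17.9 (log2 fold change 1.03, SE 0.49, adjusted p = 0.209, from the authors' deposited table). The third, 8885 bases downstream, went from 4.74 to 0.21 (adjusted p = 0.0681, from the authors' deposited table). Its log2 fold change of -4.51 (SE 1.59) there rests on a dTAG13 level under 3 normalized counts per library, so its size is poorly set; with each GC decile centred it was -3.81, not called. The first and second peaks were in the dTAG13 list only and the third in the DMSO list only. Only the second lay above 3 normalized counts in both groups.

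**Figure D4:**
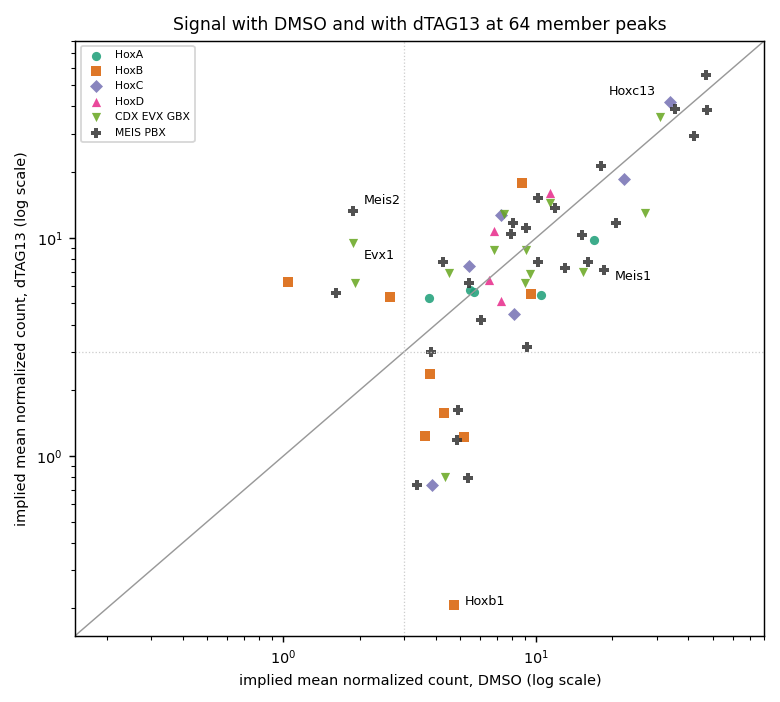
Implied mean normalized count with DMSO (x axis, log scale) and with dTAG13 (y axis, log scale) at the 64 peaks, with colour and marker by gene group, the line of equality, and dotted lines at 3 normalized counts. HoxB peaks sit mostly below 10 in both groups, Hoxc13 at 33.9 and 41.8, and the called Meis2 peak at 1.88 and 13.3.

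Seen by position and not by gene assignment, the 4 HOX clusters held 34 peaks from the first to the last HOX start site with 5000 bases on each side: 7 in HoxA, 13 in HoxB, 7 in HoxC and 7 in HoxD. This was 6.51 peaks per 100 kb, against 2.59 over the chromosomes as a whole. Genes are also denser in the clusters, with 39 HOX genes in 521965 bases, against 21924 protein-coding genes over 2725521370 bases. The peak density was not compared with regions of like gene density. Of the 34 peaks, 22 were assigned to a HOX member. None was called in the authors' deposited table, against 5.26% of all tested peaks, and 3 had an unadjusted p under 0.05, against 19.7%. For all promoter peaks these shares were 2.17% and 12.6%, and the 34 were not compared with peaks of like position. The pooled lists had 29 peaks in the clusters with DMSO and 27 with dTAG13 (3888 and 3388 bases covered), a ratio of 1.07, where the whole lists had 65089 and 44391, a ratio of 1.47. Each list was called on its pooled libraries, so this ratio has no replicate error. The largest difference inside a cluster by fold was at a weak HoxC peak near Hoxc5, assigned to no member, with 0.52 with DMSO and 6.35 with dTAG13 (adjusted p = 0.0935, from the authors' deposited table).

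**Figure D5:**
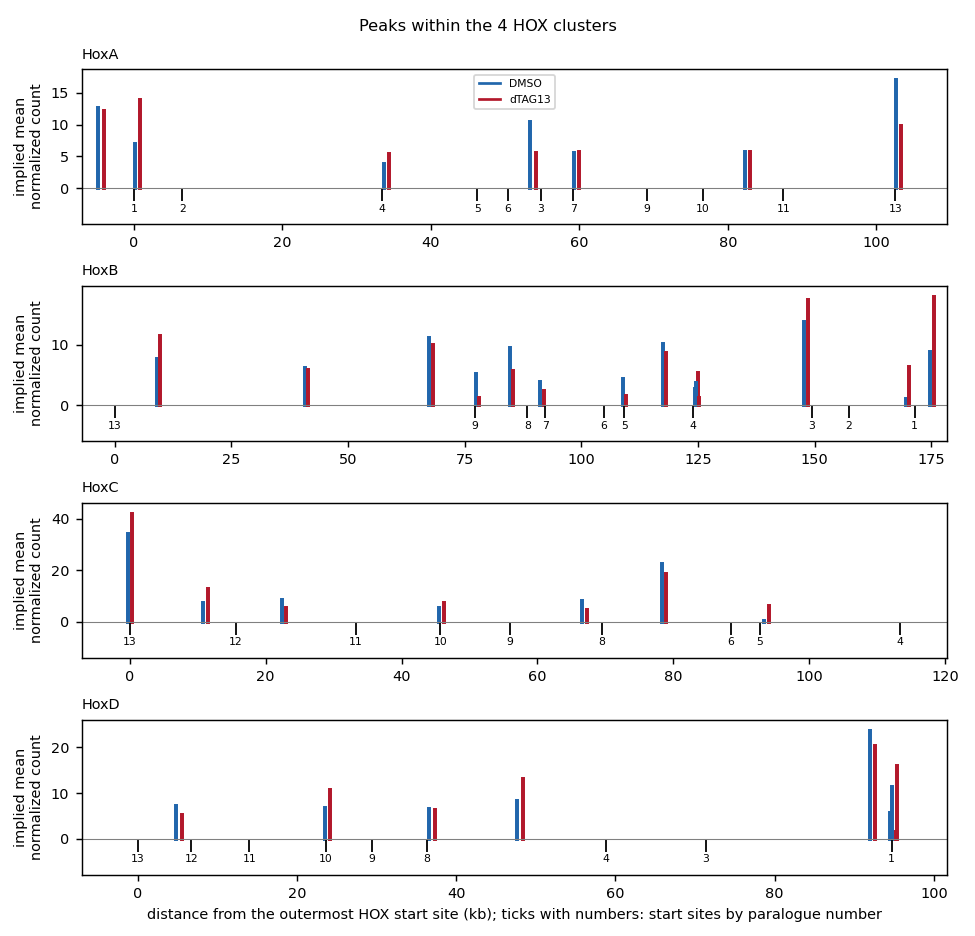
Implied mean normalized count (y axis) with DMSO and with dTAG13 at the 34 peaks inside the HOX clusters, by distance in kb from the outermost HOX start site; numbered ticks mark start sites by paralogue number. Bars of a pair are drawn side by side, and the tallest pair, at the start of HoxC, is the Hoxc13 peak with 33.9 and 41.8.

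Among the posterior genes outside the clusters, no peak of Cdx1, Cdx2 or Evx1 was called. Evx1, a homologue of even-skipped expressed in the posterior primitive streak, had the only other gain among members with an adjusted p under 0.1. Its start-site peak, chr6:52313410-52313500, had implied means of 1.89 with DMSO and 9.49 with dTAG13 (log2 fold change 2.33, SE 0.89, adjusted p = 0.0988, from the authors' deposited table). This peak was in the dTAG13 list only, and its DMSO level was under 3 normalized counts per library. Its adjusted p was 0.101 with no filter on weak peaks and 0.113 with the median of peaks in both lists set to 0. With the median of all peaks set to 0 it was 0.0658, and with each GC decile centred 0.0645. The other pair of Evx1 peaks went from 8.99 to 6.22 and from 9.14 to 8.81. Cdx2 had a pair of peaks 7458 and 7938 bases downstream of its start site, which went from 7.48 to 12.8 and from 11.4 to 14.5 (adjusted p = 0.494 and 0.744, from the authors' deposited table); no peak lay within 1000 bases of its start site. Cdx1 had 1 weak upstream peak that went from 1.92 to 6.18 (adjusted p = 0.347, from the authors' deposited table).

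Gbx2 had 7 peaks, and 2 of them had an unadjusted p under 0.05, both lower with dTAG13. The peak chr1:89885789-89886064, 43258 bases downstream of the Gbx2 start site and inside intron 16 of 17 of another gene, went from 26.9 to 13.03 (log2 fold change -1.05, SE 0.45, adjusted p = 0.15, from the authors' deposited table). With each GC decile centred, it was -0.35, not called. The peak 6161 bases downstream went from 15.4 to 6.99 (log2 fold change -1.14, SE 0.58, adjusted p = 0.254, from the authors' deposited table). A weak exonic peak 37544 bases upstream went from 4.35 to 0.80 (adjusted p = 0.347, from the authors' deposited table). The strongest, chr1:89935850-89936288 and 4890 bases upstream, had 30.8 and 35.8 (log2 fold change 0.22, SE 0.31, from the authors' deposited table), with a 95% interval of -0.38 to 0.82. The start-site peak had 9.43 and 6.82 (adjusted p = 0.748, from the authors' deposited table). Summed over the 7 peaks, the implied means were 98.2 with DMSO and 79.0 with dTAG13.

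The OTX consensus GGATTA, searched on both strands within 100 bases of each peak's midpoint, was in 6 of 64 member peaks (9.38%) and in 8.81% of all peaks. Over the whole table it was in 34.1% of the peaks called lower with dTAG13 and in 1.28% of those called higher. The same letters reversed, ATTAGG, were in 16.0% and 5.61% of these, and in 7.06% of all peaks. The 6 windows are shown because the letters are those of the depleted factor's own site. Each is 200 bases of the plus strand of GRCm38.p6, and capitals mark the consensus or its reverse complement TAATCC.
Gbx2 chr1:89885827-89886026: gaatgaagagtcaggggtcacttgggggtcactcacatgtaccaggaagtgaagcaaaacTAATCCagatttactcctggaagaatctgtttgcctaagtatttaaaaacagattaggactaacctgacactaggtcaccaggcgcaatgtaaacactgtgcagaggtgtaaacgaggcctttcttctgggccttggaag
Gbx2 chr1:89935969-89936168: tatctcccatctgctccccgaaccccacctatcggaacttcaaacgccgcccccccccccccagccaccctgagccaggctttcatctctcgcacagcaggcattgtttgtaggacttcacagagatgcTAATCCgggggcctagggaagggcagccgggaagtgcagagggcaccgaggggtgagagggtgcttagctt
Gbx2 chr1:89943314-89943513: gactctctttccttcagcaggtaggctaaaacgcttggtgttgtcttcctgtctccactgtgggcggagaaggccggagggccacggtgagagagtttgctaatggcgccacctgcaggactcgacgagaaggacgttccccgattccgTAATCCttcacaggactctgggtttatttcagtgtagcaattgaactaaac
Hoxa3 chr6:52211633-52211832: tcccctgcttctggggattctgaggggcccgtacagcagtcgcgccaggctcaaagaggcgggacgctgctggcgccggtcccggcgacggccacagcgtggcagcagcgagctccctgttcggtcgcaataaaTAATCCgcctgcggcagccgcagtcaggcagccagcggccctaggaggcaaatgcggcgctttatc
Meis1 chr11:19023386-19023585: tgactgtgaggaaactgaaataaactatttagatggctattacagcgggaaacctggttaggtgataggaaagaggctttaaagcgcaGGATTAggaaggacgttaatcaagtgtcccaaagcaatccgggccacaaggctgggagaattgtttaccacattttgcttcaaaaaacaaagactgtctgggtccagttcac
Meis3 chr7:16192496-16192695: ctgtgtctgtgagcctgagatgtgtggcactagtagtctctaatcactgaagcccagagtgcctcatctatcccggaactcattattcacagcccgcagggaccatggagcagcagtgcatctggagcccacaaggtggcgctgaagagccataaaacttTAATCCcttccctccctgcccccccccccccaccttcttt
In the order shown, these are the Gbx2 peaks 43258 bases downstream, 4890 bases upstream and 12235 bases upstream, the Hoxa3 peak 1382 bases downstream of its start site, the upstream Meis1 peak and the downstream Meis3 peak described above. Hoxa3, a gene of the pharyngeal arches and thymus, had 10.4 with DMSO and 5.46 with dTAG13 at this peak. The log2 fold changes of the 6 in the authors' deposited table were -1.05, 0.22 and 0.36 at Gbx2, -0.93 at Hoxa3, -1.37 at Meis1 and -1.54 at Meis3. Thus 4 of 6 were below 0, their median was -0.99, 2 had an unadjusted p under 0.05 and none was called. With each GC decile centred, 4 were still below 0, their median was -0.47 and 0 had an unadjusted p under 0.05. Over all 6209 peaks with the consensus the median was -1.32, 82.7% were below 0, 2439 had an unadjusted p under 0.05 and 15.3% were called. Of all peaks, with or without the consensus, 58.2% were below 0. The 58 member peaks without the consensus had a median of -0.04 and 31 values below 0 (53.4%), against 55.8% of all peaks without it. A match of these letters is a description and no measured binding.

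Of the other consensus letters searched in the same windows, TTTATNG, read by CDX and posterior HOX proteins, was in 7 member peaks (10.9%) and in 4.27% of all peaks. TGACAG of MEIS proteins was in 4 (6.25%) and in 15.4% of all peaks. TAATTA of many homeodomains was in 1 (1.56%, against 4.72%), TGATTNAT of PBX with HOX in 0 (against 1.39%) and the consensus of the insulator protein CTCF in 1 (1.56%, against 2.83%). ATTAGG was in 5 member peaks (7.81%, against 7.06%). GGAATG and AGGTCA, chosen after the values were seen, were in 4 (6.25%, against 11.5%) and 5 (7.81%, against 12.03%).

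At other genes of the same system, taken from lists of non-members, every call was in the lower direction. Over all peaks most calls were lower too, 2622 of 3638, and 3.79% of tested peaks were called lower. Among 12 upstream regulators of HOX genes, 8 of 86 tested peaks were lower with dTAG13 and 0 higher (9.30%, against the 5.26% of all peaks). They included peaks at the retinoic acid receptor gene Rarb and at Cyp26a1 and Cyp26c1, which encode enzymes that degrade retinoic acid. The Cyp26a1 peak with the smaller p went from 18.7 to 0.21 normalized counts (adjusted p = 0.000188 in the authors' deposited table). At Rarb the strongest called peak went from 49.3 to 18.3 (adjusted p = 0.00298 in the authors' deposited table). Among 12 other TALE genes, 3 of 63 tested peaks (4.76%) were lower, at Irx2 and Pknox2, and 0 higher, near the 5.26% of all peaks. Of 8 ParaHox and HOX-linked homeobox genes, 6 had peaks, and 1 of 17 peaks (5.88%), at Mnx1, was lower, also near that share. Among 10 anterior homeobox genes, 3 of 36 peaks (8.33%) were lower, 2 of them at Hesx1 and 1 at Rax. Whether these lists differ from the HOX, CDX and TALE members was not tested.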

How the data were processed

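Of the files, those used here were the authors' table of all peaks and their lists of peaks per group. Per the submitters' processing notes, fastp, Bowtie2, MACS2, featureCounts, HOMER 4.11 and ChIPseeker were used, on build mm10; their settings are not given in the sources used here. The signal per peak in the authors' deposited table was read, from its column name, as the mean over libraries of read counts divided by size factors. Fold changes (dTAG13 against DMSO, log2) and standard errors are the authors' own, and the deposited score is the first divided by the second. The deposited p-value is the normal p of that score, and the adjusted p its Benjamini-Hochberg value over 69128 peaks. The 1366 peaks left without one had a mean count of at most 1.87, and none was a member. The lists per group hold positions only, deposited with no score, and each was called on pooled libraries. Depth per library is not given.

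Implied means, 95% intervals (1.96 SE), overlaps of at least 1 base, distances to start sites (GENCODE mouse release 21) and motif matches were computed with Python 3.11.15, pandas 2.3.3, numpy 2.4.6, scipy 1.17.1 and pysam 0.24.0. The code for implied means, overlaps, motif matches and the adjustment of p was tested on simulated data. Figures used matplotlib 3.10.9. The design had provided for a count model only if library values were present, so no model was refitted. Named are every called member peak, the 12 next by p and the strongest peak of each gene group. Also named are the peak of smallest p of each member with peaks, and members without peaks. Further peaks of the same genes are given beside these. The members and the lists were chosen with earlier results of these data known. Alternatives tried concern the filter on weak peaks, the zero point, the threshold, the gene assignment, overlap, promoter distance, motif window and cluster margin. Counts over the lists of non-members cover all their genes, and not every gene of these lists is reported here by name.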

Additional observations from a re-analysis of the deposited data

How the results depend on the processing

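The number of called member peaks was 1 as deposited. It was 0 among peaks with a mean count of at least 10 (23 of 64 members; 6.90% of all such peaks were called), 0 at an adjusted p under 0.01 (1.75% of all) and 3 at an adjusted p under 0.1 (9.10% of all), where the Hoxb1 peak 8885 bases downstream and the Evx1 start-site peak were added. Accordingly the HOX count was 1 and the CDX, EVX and GBX count 1 at the threshold of 0.1, and the MEIS and PBX count was 0 with the filter at 10 and 0 at 0.01. The members past the authors' further condition on fold numbered 0 with the filter and 3 at 0.1. Of 525 alternatives, 506 left the result on its side of the threshold or within its spread. For the members' median this spread was the median SE of single peaks, 0.71. Of the 525, 471 concerned single peaks, most of them uncalled. Some alternatives could not differ: an uncalled peak stays uncalled at 0.01, and the other gene assignment gave the same 64 peaks. The count of 506 is therefore no measure of robustness. Uncalled peaks near 0 changed sign with the zero point. With the median of all peaks set to 0, Hoxa10 was at 0.17, Hoxd8 at 0.16 and the Evx1 peak 7425 bases upstream at 0.13. With the median of peaks in both lists set to 0, Hoxa7 was at -0.026. With each GC decile centred, Hoxa10 was at 0.032 and the Meis2 peaks at 186.0 and 301.9 kb at 0.0072 and 0.42. That setting moved 7 member peaks by over 1.5 times. The members' median log2 fold change ranged from -0.25 to 0.13 over these settings. No paired analysis was possible because the table gives 1 mean per peak and no library values; for the same reason no library could be left out. Wide intervals limit what most member peaks could show.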

Other observations

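In the authors' deposited table a column headed DEGup marks 429 genes with a peak (1.60% of 26796) and a column headed DEGdown marks 370 (1.38%). Pbx3 was the only member with a mark in the first, and no member had a mark in the second. What the marks were computed from is not given in the sources used here. The Pbx3 start-site peaks were nominally lower with dTAG13 and not called.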
